A study of Mus musculus with 4 samples.

Results

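The genes described here encode the translation initiation factors (eIFs) of the mouse, measured in T29 cells, a thymic lymphoma cell line, after treatment with a gamma-secretase inhibitor or with its solvent. They were taken as all genes whose symbol starts with Eif and a number from 1 to 6, without the eIF2 kinases, among probe sets that the platform annotation pairs with 1 gene. Each gene is represented by its brightest probe set, judged by the mean of all 4 arrays. This gave 43 genes with 120 probe sets, of 18193 genes on the array: 4 genes of eIF1, 10 of eIF2, 11 of eIF3, 13 of eIF4, 4 of eIF5 and 1 of eIF6. Genes of the family without a probe set of their own in this annotation, among them those of eIF1 itself, eIF2 alpha and the eIF4G scaffold Eif4g1, were not analysed here. The study had 2 GSI arrays, from cells given the gamma-secretase inhibitor MRK003, and 2 DMSO arrays, from cells given the solvent. The labels write the dose as 5 mM and the time as 36 h in the same words for all 4 samples, so the groups come from the sample titles, and the unit of the dose could not be checked. All cells were of the same line, and the labels give no difference in genotype between the groups. Nothing in the labels says whether the 2 samples of a group were separate cultures. The p-values weigh the difference between the groups against the spread within groups, estimated with help from all genes. That spread may be technical variation only.

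Initiation joins a ribosome to the start codon of an mRNA. In outline, the GTPase eIF2 brings the initiator tRNA to the small ribosomal subunit together with eIF1, eIF1A, eIF3 and eIF5, while eIF4E binds the cap of the mRNA and recruits the scaffold eIF4G and the helicase eIF4A. eIF2B recharges eIF2 with GTP after each round, eIF5B joins the large subunit, and eIF6 keeps the large subunit apart from the small one until it is mature. Proliferating lymphoid cells need high rates of translation, and several of these genes, Eif4e among them, are known targets of the growth regulator Myc. In T-lineage tumours Myc is itself a known target of Notch, a receptor that gamma-secretase cleaves.

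The values are log2 expression, so a difference of 1 is a 2-fold change. Array medians over all probe sets lay between 4.86 and 4.89, and a gene is called dim below where its mean lay under 4.88, the median of all values. The 8 measured T-lineage markers had levels of 7.18 to 12.49. Of 18 measured markers of B, myeloid, erythroid, stromal and natural killer cells, 12 were dim, and the brightest was the stromal marker Pdgfrb at 8.04, which was called lower with GSI. Markers of T-lineage cells averaged 10.79 and 10.85 on the GSI arrays, against 10.48 and 10.52 on the DMSO arrays, with 4 of 8 called higher and 1 lower; their part in the results below was not tested. The Notch targets Dtx1 and Nrarp differed by -3.53 and -2.42. Hes1, another Notch target, differed by -2.26 and Myc by -0.62 between GSI and DMSO (limma, adjusted p = 0.00101 and 0.0390), and the part of Myc in the differences below was not tested either.

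Most initiation factor genes had slightly lower levels with GSI. The mean of 33 of the 43 genes was lower with GSI than with DMSO, against 53.0% of all genes. The median log2 difference was -0.15 over the 43 genes, against -0.01 over all 18193, and the differences ran from -0.67 for Eif2b3 to 0.31 for Eif3f. Both GSI arrays lay below both DMSO arrays in 28 of the 43 genes, which is 65.1%, against 27.7% of all genes. Both lay above in 4 genes, Eif2a, Eif3e, Eif3f and Eif3h, against 23.7% of all genes, and in 11 the groups overlapped. Without dim genes, which removes Eif2s3y and Eif4a3, the 28 genes were 68.3% of 41, against 32.2% of 10969 genes, and the 4 genes that lay above were 9.76%, against 30.6%. Most of the family lay well above the dim limit, and these 10969 genes were not matched to it in level. Genes of one family on the same arrays are not independent of each other, and no test was made of the family as a whole.

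**Figure D1:**
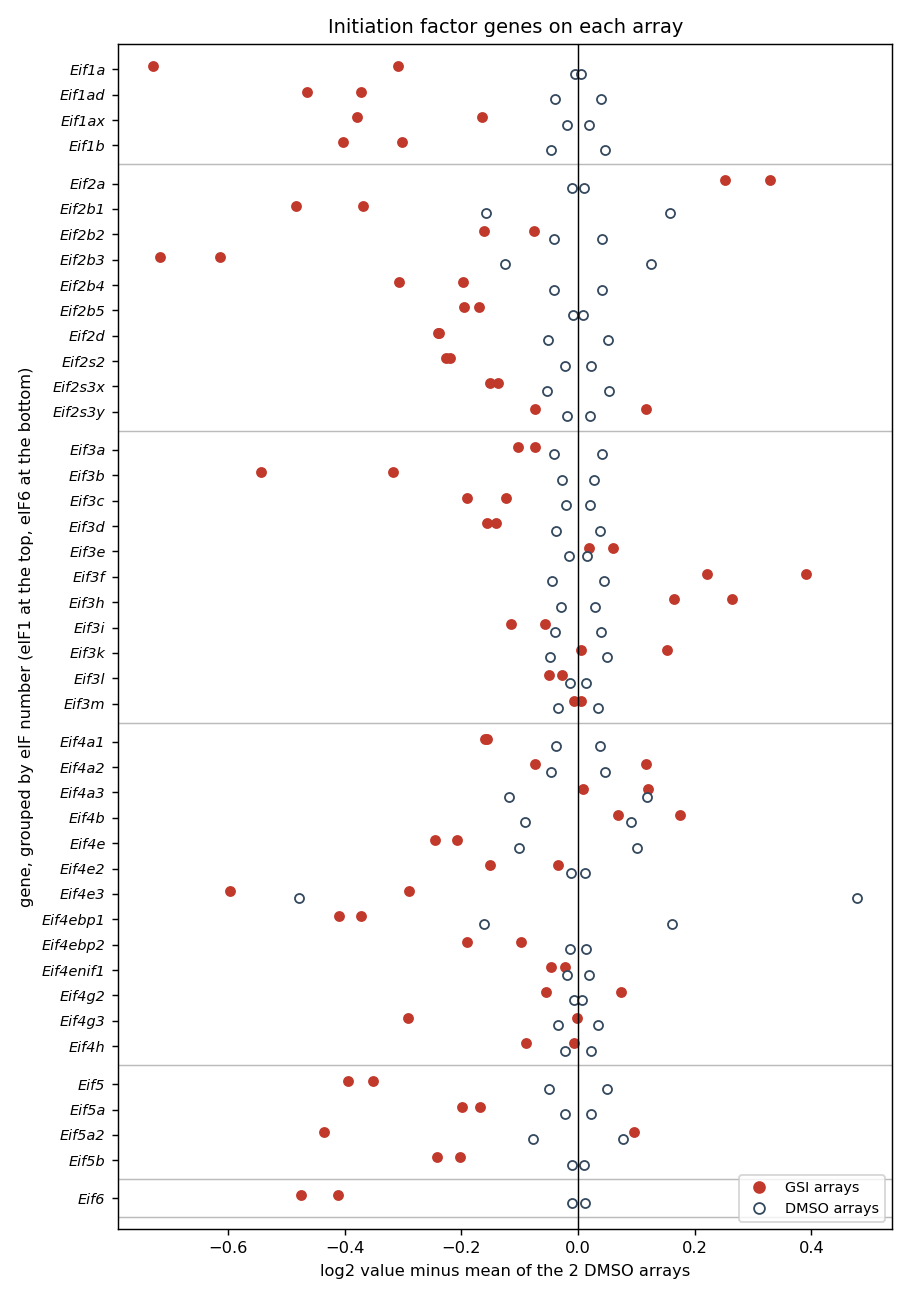
Every initiation factor gene on every array: the log2 value minus the mean of the 2 DMSO arrays of that gene (horizontal axis), with GSI arrays as filled red points and DMSO arrays as open points, 1 row per gene from eIF1 at the top to eIF6 at the bottom. In 28 of 43 rows both red points lie left of both open points, and in 4 they lie right of both.

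Single differences were small, and few passed the test. At an adjusted p under 0.05 (limma, Benjamini-Hochberg over all 18193 genes), 2 of the 43 genes were lower, Eif2b3 and Eif6, against 1.56% of all genes called lower. None of the 43 was called higher, against 2.56% of all genes. Counted in both directions the 2 genes are 4.65% of the family, close to the 4.12% of all genes. At an unadjusted p under 0.05 there were 14 genes lower, which is 32.6%, against 10.7% of all genes, and 2 higher, against 10.8%. In no member did the difference reach 1 on the log2 scale, and only Eif2b3 and Eif1a differed by 0.5 or more. The number called depended on how the variance was modelled: with an intensity trend and robust prior 11 members were lower and 3 higher, against 4.94% and 5.73% of all genes. With dim genes left out 6 members were lower, against 6.24% of genes, and none was higher, against 8.20%. With any 1 array left out, no member was called, and 0 to 6 genes were called in the whole table.

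**Figure D2:**
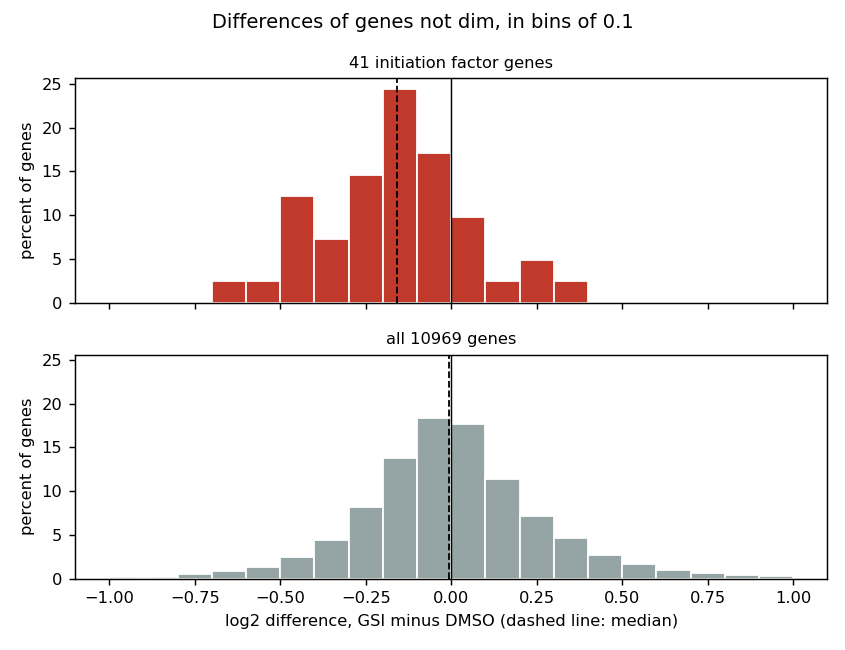
Log2 differences, GSI minus DMSO (horizontal axis, bins of 0.1), as percent of genes, for the 41 initiation factor genes that are not dim (top) and for all 10969 such genes (bottom). The dashed median lies at -0.16 for the family and at -0.01 for all genes, and 1.69% of all genes, none of the family, lie beyond the axis range of 1 in either direction.

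Upstream sequence was looked up for the family in RefSeq windows of GRCm38.p6, using the 250 bases before each annotated start. The letters searched were CACGTG, the E-box that Myc with its partner Max is known to bind; the motif is its own reverse complement, so both strands were read at once. Of the 43 genes 34 had a window, and 8 of these 34 (23.5%) held the motif in any of their windows. Counted in the same way, it was held by 8.74% of the 14368 measured genes with a window and 6.86% of all 27025 genes. Counted per window, it was in 6.02% of all 32851 windows. The 8 genes were Eif1b, Eif3f, Eif4e, Eif5a, Eif4a1, Eif5a2, Eif3k and Eif4h. Of these, 6 had lower and 2 had higher means with GSI, and of the 26 genes without the motif 21 had lower means. A match is a run of letters and not a binding site. The windows of the 3 genes with the smallest p among those with the motif are shown. Among them, Eif1b and Eif4e had lower levels with GSI and Eif3f a higher level. Capitals mark the motif, and each sequence ends at the base before the annotated start. They lie at chr9:120492356-120492605 on the plus strand for Eif1b, chr7:108934165-108934414 on the plus strand for Eif3f and chr3:138527018-138527267 on the plus strand for Eif4e, of whose 2 windows only this one holds the motif.
Eif1b: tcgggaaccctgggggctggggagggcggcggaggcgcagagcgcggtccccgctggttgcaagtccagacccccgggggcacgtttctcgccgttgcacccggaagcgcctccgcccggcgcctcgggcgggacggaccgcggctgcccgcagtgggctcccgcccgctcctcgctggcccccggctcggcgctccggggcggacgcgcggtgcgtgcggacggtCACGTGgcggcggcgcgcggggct
Eif3f: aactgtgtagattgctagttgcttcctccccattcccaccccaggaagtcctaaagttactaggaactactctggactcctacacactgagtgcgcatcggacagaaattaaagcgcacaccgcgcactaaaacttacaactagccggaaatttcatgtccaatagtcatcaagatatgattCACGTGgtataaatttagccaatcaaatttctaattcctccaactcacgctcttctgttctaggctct
Eif4e: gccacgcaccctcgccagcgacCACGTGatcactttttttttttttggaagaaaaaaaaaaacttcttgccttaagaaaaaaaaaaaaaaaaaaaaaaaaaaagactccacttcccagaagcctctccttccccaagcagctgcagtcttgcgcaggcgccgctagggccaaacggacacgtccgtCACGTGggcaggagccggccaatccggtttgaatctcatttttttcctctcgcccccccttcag
The motif begins 24 bases before the start in Eif1b and 68 bases before it in Eif3f. Eif4e holds it at 2 places, 228 and 64 bases before the start.

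All 4 genes of the eIF1 group were lower on both GSI arrays than on both DMSO arrays, against 27.7% of all genes. Each had an unadjusted p under 0.05, against 10.7% of all genes lower at that threshold, but none passed after adjustment. With the trend and robust prior Eif1a, Eif1ad and Eif1b passed (limma, adjusted p = 0.0323, 0.0106 and 0.0174), and with dim genes left out Eif1ad and Eif1b did (limma, adjusted p = 0.0271 and 0.0438). eIF1 and eIF1A act on the small subunit in the scanning for the start codon. Eif1a, which encodes an eIF1A protein from an autosome, had 9.18 and 9.60 with GSI, against 9.90 and 9.91 with DMSO. The difference was -0.52 (SE 0.15, limma adjusted p = 0.120), and the 2 GSI arrays lay further apart than the DMSO arrays. Without GSI replicate 1 it was -0.31, and without GSI replicate 2 it was -0.73. Its X-linked paralog Eif1ax had 10.72 and 10.93 with GSI and 11.08 and 11.12 with DMSO, a difference of -0.27 (SE 0.10, limma adjusted p = 0.208) that was -0.16 without GSI replicate 1. For Eif1ax the other 2 probe sets differed by more, -0.58 and -0.78. Eif1b, encoding a protein close to eIF1, had 10.07 and 9.97 with GSI, against 10.42 and 10.33 with DMSO (difference -0.35, SE 0.09, limma adjusted p = 0.0982). Its promoter is the first of the sequences above. Eif1ad, which encodes a protein with an eIF1A domain, differed by -0.42 (SE 0.09, limma adjusted p = 0.0632). Since Eif1a and Eif1ax are close in sequence, their probe sets may share signal.

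eIF2B is the exchange factor that returns eIF2 to its GTP-bound form. Its 5 subunit genes were all lower on both GSI arrays than on both DMSO arrays, against 27.7% of all genes. Eif2b3, encoding the gamma subunit of the catalytic part, fell most: it had 8.70 and 8.80 with GSI, against 9.54 and 9.29 with DMSO. Its means were 8.75 ± 0.07 with GSI and 9.41 ± 0.18 with DMSO (SD, n = 2 each), a 1.59-fold lower level (limma, adjusted p = 0.0403). The groups did not overlap, although the DMSO arrays lay 0.25 apart. Eif2b3 has a single probe set, and it did not pass when all probe sets were tested (limma, adjusted p = 0.0724) or with the replicate number as a block (adjusted p = 0.110). Eif2b1, the alpha subunit, which belongs to the regulatory part, had 8.76 and 8.87 with GSI, against 9.40 and 9.09 with DMSO (difference -0.43, limma adjusted p = 0.132). It passed with the trend and robust prior (limma, adjusted p = 0.0432), and the difference was -0.27 without DMSO replicate 1. The other subunit genes differed by -0.25 (Eif2b4, delta), -0.18 (Eif2b5, epsilon, the catalytic subunit) and -0.12 (Eif2b2, beta). The median over the 5 subunit genes was -0.25.

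Differences in eIF2 itself were smaller. Eif2s2, the beta subunit, had 12.14 and 12.15 with GSI, against 12.35 and 12.39 with DMSO, a difference of -0.22 (SE 0.08, limma adjusted p = 0.199). It passed with the trend and robust prior (limma, adjusted p = 0.0213). Of its 6 probe sets 5 had lower means, and the largest difference among them was -0.55. Eif2s3x, the X-linked gene of the gamma subunit, had 11.37 and 11.36 with GSI and 11.56 and 11.46 with DMSO (difference -0.14, and -0.09 without DMSO replicate 1). Its Y-linked counterpart Eif2s3y was dim on every array, at 2.94 and 2.75 with GSI and 2.84 and 2.80 with DMSO (difference 0.02), and the groups overlapped. Eif2d, encoding a factor that can deliver tRNA to the ribosome without eIF2, differed by -0.24 (limma, adjusted p = 0.192), and all 6 of its probe sets had lower means with GSI.

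Eif2a was the only gene of the eIF2 group above the dim limit with a higher mean with GSI. It encodes eIF2A, a separate protein that can bind initiator tRNA and is not the alpha subunit of eIF2. It had 9.60 and 9.52 with GSI, against 9.28 and 9.26 with DMSO, and the groups did not overlap. The difference of 0.29 (SE 0.08) did not pass (limma, adjusted p = 0.125), but did with the trend and robust prior (limma, adjusted p = 0.0381). Of the other probe sets of Eif2a, one differed by 0.62, and a dim one by -0.13.

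**Figure D3:**
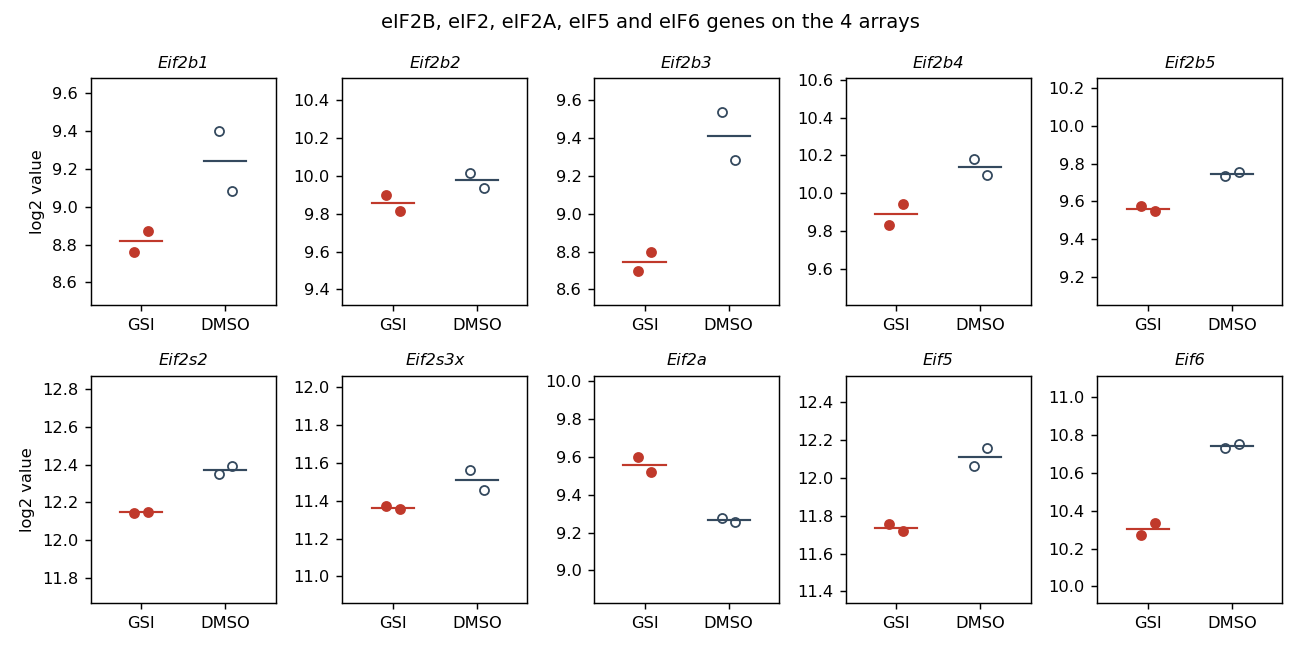
Log2 values of the eIF2B subunit genes (top row) and of Eif2s2, Eif2s3x, Eif2a, Eif5 and Eif6 (bottom row) on the 2 GSI arrays (filled, left) and the 2 DMSO arrays (open, right), with group means as lines; each panel spans the same height. The groups are apart in all 10 panels, with GSI lower in 9 and higher in the panel of Eif2a.

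The 11 measured eIF3 genes did not share a direction: 7 had lower and 4 higher means with GSI, with a median of -0.04. eIF3 is the largest initiation factor, a scaffold on the small subunit built from subunits with PCI or MPN domains and from further subunits bound to these. Eif3b, which anchors the part outside the PCI and MPN core, had the largest difference. It had 10.87 and 11.10 with GSI, against 11.39 and 11.44 with DMSO, a difference of -0.43 (SE 0.11, limma adjusted p = 0.0897). It passed when dim genes were left out and with the trend and robust prior, and over all alternatives with 4 arrays its limma adjusted p lay between 0.0118 and 0.151. Its partner Eif3i differed by -0.09, and Eif3d, a subunit that can bind the cap of some mRNAs, by -0.15.

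The genes of the MPN subunits, Eif3f and Eif3h, were both higher on both GSI arrays, against 23.7% of all genes. Eif3f had 12.70 and 12.53 with GSI, against 12.26 and 12.35 with DMSO (difference 0.31, SE 0.10, limma adjusted p = 0.156). Eif3h had 12.57 and 12.47 with GSI, against 12.27 and 12.33 with DMSO (difference 0.21, SE 0.09, limma adjusted p = 0.239). Among the alternatives run, both passed only with the trend and robust prior (limma, adjusted p = 0.0210 for Eif3f and 0.0385 for Eif3h). The mean of the 3 probe sets of Eif3h differed by -0.0079, the 2 others being dim and one of them differing by -0.34. The PCI subunit genes lay between: Eif3k differed by 0.08, Eif3e by 0.04, Eif3m by -0.0012, Eif3l by -0.04, Eif3a by -0.09 and Eif3c by -0.16, and none of these had an unadjusted p under 0.05. Whether subunits differ from each other was not tested.

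**Figure D4:**
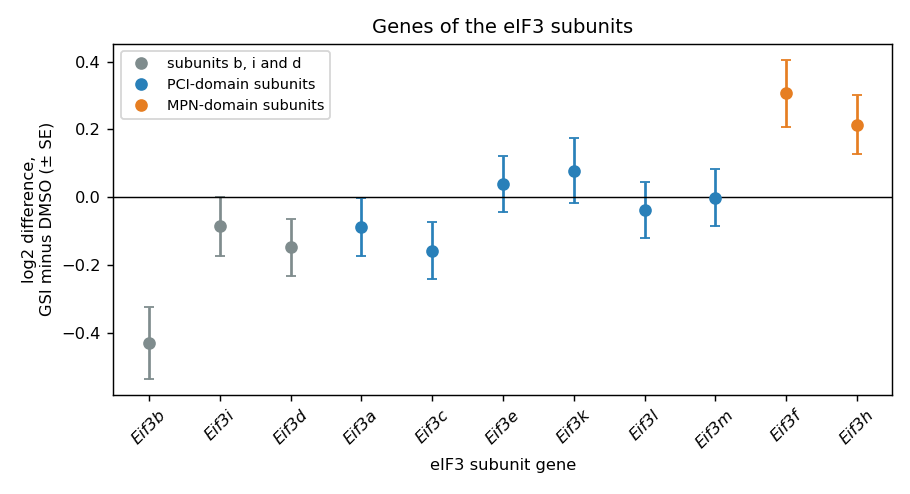
Log2 difference, GSI minus DMSO, of the 11 eIF3 subunit genes (points) with the standard error of the moderated fit (bars), coloured by the kind of subunit. Eif3b lies lowest at -0.43 and the MPN subunit genes Eif3f and Eif3h highest at 0.31 and 0.21.

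In the eIF4 group, all 6 genes of the cap-binding proteins and their partners had lower means with GSI. In 5 of them both GSI arrays lay below both DMSO arrays, against 27.7% of all genes. The gap was narrow for Eif4enif1, where the nearest GSI and DMSO arrays were 8.960 and 8.963. It was also narrow for Eif4e2, at 10.08 and 10.10. Of the 7 genes of the helicases, their cofactors and the scaffolds, 3 had lower and 4 higher means. The groups overlapped in 6 of these 7, among them all 4 with higher means, so their signs are uncertain. Eif4e, the cap-binding protein, had 11.33 and 11.37 with GSI, against 11.68 and 11.48 with DMSO, a difference of -0.23 (SE 0.10, limma adjusted p = 0.275) that was -0.12 without DMSO replicate 1. Of its 4 probe sets 3 were lower, the 2 others among them by -0.33 and -0.35. Eif4e2, a cap-binding paralog that does not bind eIF4G well, had 9.96 and 10.08 with GSI and 10.13 and 10.10 with DMSO (difference -0.09). Eif4e3, another paralog, had 6.75 and 7.06 with GSI and 6.87 and 7.83 with DMSO. Its difference of -0.44 was the largest of the group, but the DMSO arrays lay 0.96 apart, the groups overlapped and the sign turned without DMSO replicate 2 (0.035).

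Eif4ebp1 encodes 4E-BP1, which holds eIF4E away from eIF4G until the kinase mTOR phosphorylates it. It had 10.33 and 10.29 with GSI, against 10.54 and 10.86 with DMSO (difference -0.39, SE 0.13, limma adjusted p = 0.152), and the groups did not overlap. It passed with the trend and robust prior (limma, adjusted p = 0.0430). Without DMSO replicate 2 the difference was -0.23 and without DMSO replicate 1 -0.55. Eif4ebp2, its paralog, had 9.48 and 9.57 with GSI and 9.65 and 9.68 with DMSO (difference -0.14). Eif4enif1, encoding a protein that carries eIF4E into the nucleus, differed by -0.03. The median over these 6 genes was -0.18, and none was called.

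Among the helicase genes, Eif4a1, the main one in dividing cells, had 12.12 on both GSI arrays, against 12.32 and 12.24 with DMSO (difference -0.16, SE 0.08, limma adjusted p = 0.353). All 3 of its probe sets were lower. Its paralog Eif4a2 had 11.13 and 10.94 with GSI and 11.06 and 10.97 with DMSO (difference 0.02), and the groups overlapped. Eif4a3, which belongs to the exon junction complex and not to the cap complex, was dim on its own probe set, with 4.75 and 4.63 with GSI and 4.51 and 4.75 with DMSO (difference 0.06). The helicase cofactor genes Eif4b and Eif4h differed by 0.12 and -0.05. All 3 probe sets of Eif4b had higher means with GSI, by 0.12 to 0.24. The scaffold gene Eif4g3 had 8.71 and 8.42 with GSI and 8.68 and 8.75 with DMSO. Its difference of -0.15 was -0.29 without GSI replicate 1 and -0.0023 without GSI replicate 2. Eif4g2, encoding a relative of eIF4G that does not bind eIF4E, had 12.64 and 12.77 with GSI and 12.68 and 12.70 with DMSO (difference 0.01), and the groups overlapped in both genes.

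The 4 genes of the eIF5 group had lower means with GSI. Eif5, the protein that makes eIF2 hydrolyse its GTP at the start codon, had 11.76 and 11.72 with GSI, against 12.06 and 12.16 with DMSO. The difference of -0.37 (SE 0.09) missed the threshold (limma, adjusted p = 0.0800), but all 5 of its probe sets were lower, by -0.26 to -0.44. It passed when dim genes were left out and with the trend and robust prior, and over all alternatives with 4 arrays its limma adjusted p lay between 0.00479 and 0.156. Eif5b, the GTPase of subunit joining, differed by -0.22 (limma, adjusted p = 0.199), with all 3 probe sets lower. Eif5a, the hypusine-bearing factor that also helps elongation, had 12.95 and 12.98 with GSI and 13.17 and 13.12 with DMSO (difference -0.18, SE 0.08, limma adjusted p = 0.278), and passed with the trend and robust prior (limma, adjusted p = 0.0306). Its paralog Eif5a2 had 6.12 and 6.65 with GSI and 6.64 and 6.48 with DMSO (difference -0.17), so the groups overlapped.

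Eif6 was the other gene called lower. eIF6 binds the large ribosomal subunit, where it acts both in the last steps of its making and in keeping the subunits apart. Eif6 had 10.27 and 10.33 with GSI, against 10.73 and 10.76 with DMSO. The means were 10.30 ± 0.05 with GSI and 10.74 ± 0.02 with DMSO (SD, n = 2 each), a 1.36-fold lower level that lay at the threshold (limma, adjusted p = 0.0499). The second, dimmer probe set of Eif6 differed by 0.0085, and as the mean of both the gene did not pass (-0.22, adjusted p = 0.205). Nor did it pass when all probe sets were tested (adjusted p = 0.0946) or with the replicate number as a block (adjusted p = 0.117).

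Of the 120 probe sets of the family 96 had lower means with GSI, against 53.2% of all 45037 probe sets. None passed when all of these were tested (limma, Benjamini-Hochberg), against 628 (1.39%) on the array. At an unadjusted p under 0.05, 32 were lower, against 8.23% of all probe sets, and 3 were higher, against 8.17%. Probe sets of 1 gene are not independent of each other. Of the 33 genes with more than 1 probe set, 18 had lower means on every one, 1 (Eif4b) had higher means on every one, and 14 had probe sets of both signs. In Eif1ax, Eif2s2, Eif4e and Eif5b, for example, a dimmer probe set had a larger negative difference than the one used for the gene. Replicates of some genes lay further apart than the group means did. The gap between replicates was 0.96 for Eif4e3 with DMSO and 0.53 for Eif5a2 with GSI, beside differences of -0.44 and -0.17. For Eif1a with GSI the gap was 0.42, beside a difference of -0.52, and the groups did not overlap.

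**Figure D5:**
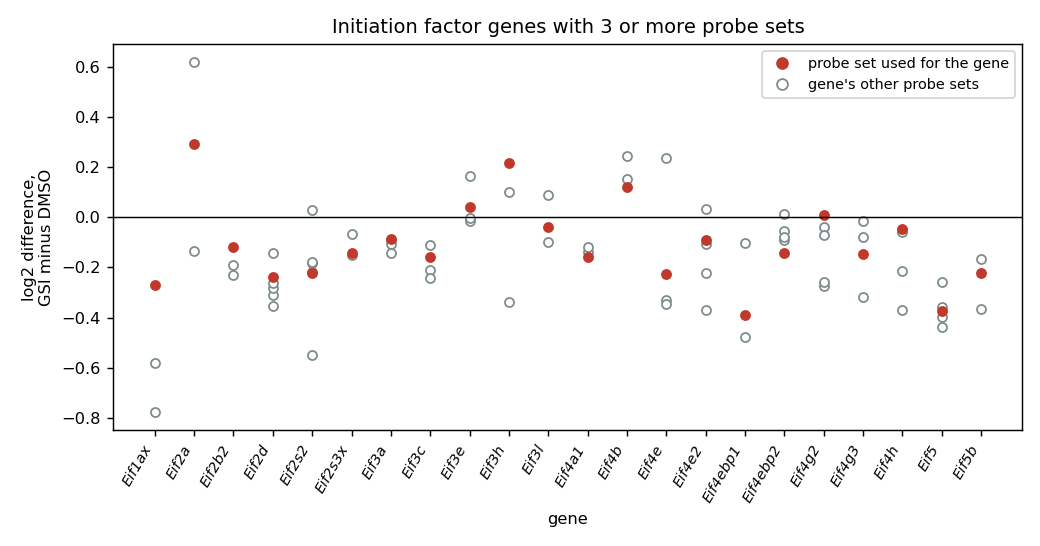
Log2 difference, GSI minus DMSO, of every probe set of the 22 initiation factor genes with 3 or more probe sets; the probe set used for the gene is filled red and the others are open. Every probe set of Eif1ax, Eif2b2, Eif2d, Eif2s3x, Eif3a, Eif3c, Eif4a1, Eif4ebp1, Eif4g3, Eif4h, Eif5 and Eif5b lies below 0, and every one of Eif4b above it.

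Genes that work beside the initiation factors moved in both directions. Of 10 genes listed under elongation and termination, 8 had lower means, with a median of -0.23, and none was called in either direction. Among the 8, Eef1a1 and Eef1a2 differed by only -0.01 and the groups overlapped. The elongation factor genes Eef2 and Eef1b2 were higher on both GSI arrays, by 0.19 and 0.15. Eef1d was lower on both, with a difference of -0.18, and Eef1a1 differed by -0.01. Elongation factor genes such as these, and those of the eIF3 subunits e, f and h, are known for mRNAs that start with a pyrimidine tract. In mammalian cells such mRNAs are translated under control of mTOR. Eif3e, Eif3f and Eif3h were also higher on both GSI arrays, by 0.04, 0.31 and 0.21, where 23.7% of all genes lay above both DMSO arrays. Eef1d went the other way, and for Eef1a1 the groups overlapped. None of these genes was called, and the part of mTOR in their differences was not tested. The release factor genes Etf1 and Gspt1 were lower on both GSI arrays, by -0.39 and -0.37, and Etf1 had the smallest p of the list (limma, adjusted p = 0.0616). Etf1 had 10.59 and 10.63 with GSI, against 11.01 and 11.00 with DMSO, without overlap.

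Of 18 initiation partners and regulators, 8 had lower and 10 higher means, with a median of 0.02. Both GSI arrays lay below both DMSO arrays in 6 (33.3%), against 27.7% of all genes. They lay above both in 7 (38.9%), against 23.7%. Only 1 gene was called higher and none lower. The gene called higher was Pdcd4, whose protein blocks eIF4A by binding it in place of eIF4G. Pdcd4 had 10.16 and 10.15 with GSI, against 9.51 and 9.51 with DMSO, a 1.56-fold higher level (limma, adjusted p = 0.0180). Of 8 genes around eIF2 phosphorylation (kinases, the activator Gcn1, phosphatase subunits and the downstream factor Atf4), 4 had lower and 4 higher means. Both GSI arrays lay below both DMSO arrays in 4 of the 8 (50%) and above both in 2 (25%). Only 1 gene was called higher, and none lower. It was Eif2ak3, encoding PERK, the kinase of the endoplasmic reticulum that phosphorylates eIF2, with 9.72 and 9.57 with GSI, against 8.60 and 8.75 with DMSO. This was a 1.96-fold higher level (limma, adjusted p = 0.0109). Of 6 listed genes of the polyamine and hypusine route, through which eIF5A gets its modification, only 4 were measured. All 4 had lower means and 1 was called lower. That gene was Srm, encoding spermidine synthase, with 10.38 and 10.50 with GSI, against 11.47 and 11.30 with DMSO, a 1.92-fold lower level (limma, adjusted p = 0.0114). Dohh and Dhps, the enzymes that make hypusine on eIF5A, differed by -0.26 and -0.21 and did not pass. In all, 40 of the 44 genes on these lists were measured, and 3 of the 40 were called, which is 7.50%, against 4.12% of all genes. All 3 calls were lost with the replicate number as a block.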

How the data were processed

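RNA of 4 samples was measured on Affymetrix expression arrays from biotin-labelled targets, per the labels' protocols. The deposited values are log2 expression per probe set, made by the authors with RMA (background correction, normalization between arrays, summary of probes) per the submitters' processing notes; which version is not given in the sources used here. The table held 45101 probe sets; 64 control probe sets were left out, and of the other 45037, 34945 had 1 gene symbol, 932 several and 9160 none. Symbols follow RefSeq of GRCm38.p6. The brightest probe set stood for each of 18193 genes.

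GSI and DMSO were compared with limma 3.58.1 in R 4.3.3 (lmFit, eBayes, group only, two-sided), with Benjamini-Hochberg adjustment over all genes and calls at an adjusted p under 0.05. The moderated fit used 5.80 degrees of freedom (prior 3.80). Standard errors are those of the fit, and SD is over 2 arrays. The step was also run on simulated data, the outcome of which is not given here. Every member is named; array values are given for called members, the largest difference per eIF number, paralogs, and further members chosen after their values were seen. Of the related lists, called genes and the smallest p are given, with others chosen after their values were seen. Members and lists were chosen with earlier results of these data known. Because the arrays were normalized to each other, a change shared by nearly all genes would not be seen. The number of arrays limits the precision. Alternatives were a test of every probe set, averaged probe sets per gene, omission of dim genes, an intensity trend with robust prior, median-centred arrays, cyclic loess, a replicate block and each array left out.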

Additional observations from a re-analysis of the deposited data

How the results depend on the processing

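The family's median difference of -0.15 stayed below 0 under all alternatives run; it was -0.13 with cyclic loess and lay between -0.17 and -0.12 with 1 array left out. The count of members called lower, 2 in the report, was 0 when every probe set was tested, 1 (Eif2b3) with averaged probe sets, 6 with dim genes left out, 11 with an intensity trend and robust prior, and 0 with any array left out. The count of members called higher was 0 except with the trend and robust prior, where it was 3. All genes called numbered 750 in the report, 339 among the genes' brightest probe sets when every probe set was tested, 1584 with dim genes left out, 1941 with the trend and robust prior, and 0 to 6 with 1 array left out. Related translation genes called numbered 3 in the report, 11 with dim genes left out, 14 with the trend and robust prior, and 0 with any array left out. With the replicate number as a block, which no label says pairs samples (the replicate differences of the groups correlated at 0.085 across genes), 217 genes were called, with 0 members lower and 0 related genes. The cause of these differences was not tested. Signs turned for uncalled members only: with averaged probe sets for Eif2s3y (-0.064), Eif3d (0.00048), Eif3h (-0.0079), Eif3m (0.067) and Eif4g2 (-0.13), and with cyclic loess for Eif3m (0.016). Leaving out 1 array moved the difference of 24 of the 43 members by over 1.5 times or turned it. With 1 array left out, differences ran from -0.074 to 0.12 for Eif2s3y, -0.035 to 0.033 for Eif3m, -0.074 to 0.12 for Eif4a2, -0.055 to 0.18 for Eif4a3, -0.92 to 0.035 for Eif4e3, -0.055 to 0.074 for Eif4g2 and -0.44 to 0.095 for Eif5a2. In those fits the lone array of a group is assumed to vary like the other group.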

Other observations

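Some probe sets of the family name several genes and entered no comparison above. The 3 probe sets shared by Eif3j1 and Eif3j2, genes of the eIF3 subunit that binds loosely near the decoding site, were lower on both GSI arrays. The brightest of them had 10.76 and 10.91 with GSI, against 11.26 and 11.09 with DMSO, a difference of -0.34. The other 2 differed by -0.36 and -0.48, and none of the 3 passed when all probe sets were tested (limma, adjusted p = 0.220, 0.194 and 0.152). A probe set shared by Eif4a3 and Gm5576 had 11.30 and 11.37 with GSI, against 11.62 and 11.52 with DMSO, a difference of -0.24 (limma, adjusted p = 0.305), while the probe set of Eif4a3 alone was dim. The probe set shared by Ankhd1 and Eif4ebp3 averaged 7.97 with GSI and 7.98 with DMSO, and the groups overlapped.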
